A study of Rattus norvegicus and Mus musculus with 34 samples.

Results

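The lysosomal cathepsins and legumain are proteases that digest proteins inside the lysosome, the acidic compartment in which a cell breaks down what it has taken up. The 10 genes Ctsa, Ctsb, Ctsc, Ctsd, Ctsf, Ctsh, Ctsl, Ctss, Ctsz and Lgmn were taken by symbol, by a rule that uses no measured value. The genes were, however, chosen with earlier results of these data known. They were 10 of 20022 genes in the rat table and 10 of 51912 rows in the mouse table. RNA was sequenced from periodontal healing tissue of 23 rats and from 11 samples of the mouse cell line RAW264.7. The rats were male wild-type Sprague-Dawley rats, 6 to 8 weeks old per the study's methods, with a periodontal bone defect made in the mandible and penicillin given afterwards in all groups. In the sensory nerve+ groups the inferior alveolar nerve, which carries sensation from the lower jaw, was left intact, and in the sensory nerve- groups it was transected in the same operation and a segment of it was removed. Tissue was taken at days 3, 7 and 14, with 3 rats in the sensory nerve+ group of day 3 and 4 rats in each other group. RAW264.7 is a macrophage-like line made by viral transformation, so its samples stand for 1 line. These cells were stimulated for 6 h with 100 ng/ml lipopolysaccharide (LPS, a component of the bacterial wall) in 6 samples and with LPS plus 10 nM calcitonin gene-related peptide (CGRP, a peptide that sensory nerves release) in 5 samples. The labels did not say that the in vitro samples came from separate cultures, so p-values there measured only the spread between these samples, which may be technical.

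Most cathepsins are cysteine proteases. They are made as inactive proenzymes, carried to the lysosome by mannose 6-phosphate receptors and activated there at low pH, and cystatins inhibit those that escape. Ctsl, Ctsf and Ctss are endopeptidases, Ctsb also takes dipeptides off the carboxyl end, and Ctss keeps its activity at neutral pH and trims the invariant chain on which MHC class II molecules depend. Ctsh and Ctsc remove residues from the amino end of a protein, and Ctsc activates the granule proteases of neutrophils and killer cells. Ctsz is a carboxypeptidase. Ctsd is an aspartic protease, Ctsa is a serine carboxypeptidase that also protects the sialidase Neu1 and the galactosidase Glb1, and Lgmn (legumain) cuts after asparagine and processes other cathepsins. Macrophages are rich in many of these enzymes, while the bone-resorbing osteoclast relies on cathepsin K (Ctsk), which was not among the 10.

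The promoters of the genes are shown because several members moved together over the days. RefSeq windows of the rat assembly GRCr8, each from 250 bases before to 50 bases after the start of the gene, were found for 9 of the 10 genes, all but Ctsb. The reads had been aligned to another rat assembly, mRatBN7.2. The windows were searched on both strands for CACGTG, the E-box core of the element that the lysosomal regulator TFEB binds, for the core of the interferon response element (GAAA, any 2 bases and GAAA again), and for GAGGAAGT, a site of the myeloid factor PU.1. CACGTG stood in the windows of Ctsd and Ctsf, against 6.65% of 27457 rat promoter windows (1 per gene). Within the longer form TCACGTGA it stood only in Ctsd among the 9 windows, against 0.867% of all windows. The interferon core stood only in Ctss among the 9 windows, against 3.77% of all windows. GAGGAAGT stood in Ctsc and Ctss as its reverse complement, against 2.44% of all windows. These matches describe letters in the windows and were not tested as sites. Ctsd is shown as the member with 2 E-boxes that fell over the days, Ctsf as a member with an E-box that did not fall, Ctss for its interferon and PU.1 letters, and Lgmn and Ctsl as the pair that fell most and held none of the 3 motifs. Ctsa, Ctsh and Ctsz also held none of them, and Ctsc, which fell and held GAGGAAGT, is not shown. Capitals mark the matches, and all windows are written 5′ to 3′ on the strand of the gene, Ctsd (chr1:206968772-206969071, minus strand), Ctsf (chr1:211581919-211582218, plus strand), Ctss (chr2:185775146-185775445, plus strand), Ctsl (chr17:769854-770153, plus strand) and Lgmn (chr6:127347279-127347578, minus strand).
Ctsd: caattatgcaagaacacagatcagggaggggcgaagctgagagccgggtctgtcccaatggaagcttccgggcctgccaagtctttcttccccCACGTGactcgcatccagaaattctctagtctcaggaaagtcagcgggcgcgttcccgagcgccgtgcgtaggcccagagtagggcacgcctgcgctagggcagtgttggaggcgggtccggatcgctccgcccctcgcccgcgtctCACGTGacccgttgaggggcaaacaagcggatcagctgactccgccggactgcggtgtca
Ctsf: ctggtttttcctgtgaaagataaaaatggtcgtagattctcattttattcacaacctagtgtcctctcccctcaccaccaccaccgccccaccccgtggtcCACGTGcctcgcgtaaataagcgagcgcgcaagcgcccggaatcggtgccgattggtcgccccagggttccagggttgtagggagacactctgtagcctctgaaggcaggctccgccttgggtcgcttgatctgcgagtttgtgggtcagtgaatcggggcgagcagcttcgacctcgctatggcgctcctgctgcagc
Ctss: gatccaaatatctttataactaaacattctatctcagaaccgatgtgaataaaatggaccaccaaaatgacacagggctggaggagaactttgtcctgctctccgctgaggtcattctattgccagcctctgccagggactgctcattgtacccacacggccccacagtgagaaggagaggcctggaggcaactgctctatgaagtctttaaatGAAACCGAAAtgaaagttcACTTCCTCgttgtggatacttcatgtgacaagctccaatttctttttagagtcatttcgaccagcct
Ctsl: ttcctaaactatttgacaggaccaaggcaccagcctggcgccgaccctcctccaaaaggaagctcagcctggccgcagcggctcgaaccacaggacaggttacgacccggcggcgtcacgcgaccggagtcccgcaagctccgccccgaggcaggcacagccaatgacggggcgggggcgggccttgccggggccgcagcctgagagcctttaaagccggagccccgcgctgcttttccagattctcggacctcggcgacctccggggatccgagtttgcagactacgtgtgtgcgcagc
Lgmn: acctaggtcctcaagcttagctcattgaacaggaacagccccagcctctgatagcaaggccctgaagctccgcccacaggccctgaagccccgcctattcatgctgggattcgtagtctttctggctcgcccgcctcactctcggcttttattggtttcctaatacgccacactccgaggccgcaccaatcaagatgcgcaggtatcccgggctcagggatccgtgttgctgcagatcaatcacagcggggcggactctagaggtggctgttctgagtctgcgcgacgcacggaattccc

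Libraries held 14854389 to 18742274 counts in the rats and 55614185 to 71538840 reads in the macrophages. Levels are given as CPM, the count of a gene relative to the size of its library, after scaling by TMM, the trimmed mean of M values, which sets the libraries to a common scale by the genes that differ least. Each member had at least 710 counts in every rat. The rat tissue is a mixture of cells, and fewer cells of a type and less RNA per cell cannot be told apart in it. All 12 genes of a macrophage marker list had means above 1 CPM in each rat group, whereas C1qa, C1qb, C1qc and Cd163 were below it in RAW264.7. Replicate 3 of the sensory nerve- group of day 14 stood apart, since 50.6% of its counts came from erythroid genes. The sensory nerve- samples of day 7 came from a table of their own, so a difference between the tables and the transection cannot be told apart on that day. Nor can the tables be told apart from the day in the sensory nerve- steps from day 3 to 7 and from day 7 to 14. The same difference also enters the pooled and interaction fits.

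The 10 genes together took 0.627% to 1.03% of the counts in the sensory nerve+ rats at day 3, against 0.309% to 0.396% at day 14, so these ranges did not overlap. At day 7 they took 0.409% to 0.963%, which overlapped day 3. After transection the shares were 0.759% to 1.44% at day 3, 0.477% to 1.49% at day 7 and 0.226% to 0.643% at day 14. These are shares of whole libraries. Erythroid genes took 0.265% to 50.6% of the counts in the sensory nerve- rats of day 14. The genes of the family tended to be low or high in the same rats. Replicate 1 of the sensory nerve- group of day 7 had the lowest level of its group for 10 of 10 members, and replicate 3 of the sensory nerve+ group of day 7 likewise for 10 of 10. Replicate 1 was highest for 10 of 10 in the sensory nerve+ group of day 7, and the replicate 1 of day 3 for 9 of 10. Across the 23 rats, the log2 level of Ctsa followed the mean of the other 9 members with Pearson's r = 0.97, and that of Ctsh with r = 0.23. These correlations pool 6 groups that differ in day and nerve and serve as a description only. Ctsb was most alike with Ctsd (r = 0.96), Ctsl with Lgmn (r = 0.95) and Ctsf with Ctsh (r = 0.78), while Ctsl and Ctsh ran apart (r = -0.23).

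By group means, 5 members (Ctsa, Ctsb, Ctsf, Ctss and Ctsz) were highest in the sensory nerve- rats of day 7, 3 (Ctsd, Ctsl and Lgmn) in the sensory nerve- rats of day 3, Ctsc in the sensory nerve+ group of day 3, and Ctsh in the sensory nerve- rats of day 14. The sensory nerve+ rats of day 14 had the lowest mean for 7 members. Neighbouring groups in this order overlapped, except for Ctsb between the 2 nerve groups of day 14, and for Ctsl between the sensory nerve+ group of day 7 and the one next below. Ctsb had 3742 ± 1532 CPM (n = 4, SD) in the first group and 1146 ± 265 CPM (n = 4, SD) in the last of its order. Ctsf, which was flatter, had 124 ± 41.8 CPM (n = 4, SD) after transection at day 7 and 71.3 ± 12.4 CPM (n = 4, SD) at day 3, its lowest group.

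**Figure D1:**
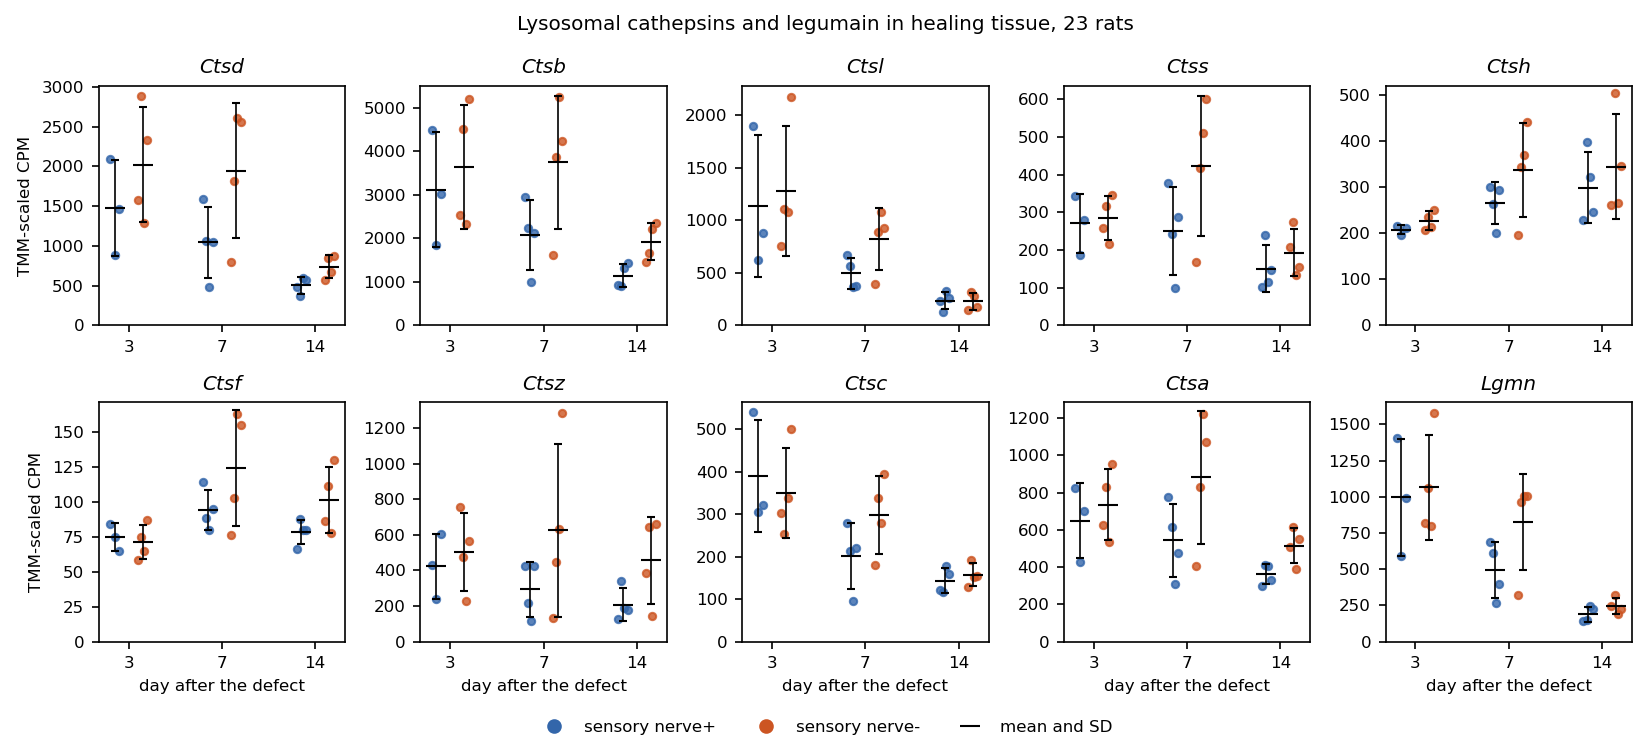
TMM-scaled CPM of each member (y axes, from 0) by day after the defect (x axes) in 23 rats, where each point is 1 rat and the black marks are the mean and SD. Lgmn, Ctsl, Ctsd and Ctsc lay lower at day 14 than at day 3 in every rat of either nerve group, and Ctsh lay higher.

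How the levels changed as the defect healed was asked by comparing day 14 with day 3 within each nerve group. Lgmn, Ctsl, Ctsd and Ctsc were lower at day 14 in the sensory nerve+ rats and again in the sensory nerve- rats. In the sensory nerve+ rats 4 of 10 members were called lower by edgeR's quasi-likelihood test (Benjamini-Hochberg adjusted p under 0.05 over all genes tested), against 3.09% of 15065 genes called lower and 5.78% called in either direction. After transection 4 of 10 were called lower, against 14.6% of 14449 genes called lower and 23.5% called in either direction. No member was called higher, against 2.69% of genes in the sensory nerve+ and 8.89% in the sensory nerve- rats. An unadjusted p under 0.05 in either direction was found for 9 of 10 members in each nerve group, against 28.2% and 38.8% of genes. These included Ctsh in both nerve groups and Ctsf in the sensory nerve- rats, which were higher at day 14. Every rat of day 14 lay below every rat of day 3 for 6 members with the nerve intact (Ctsa, Ctsb, Ctsc, Ctsd, Ctsl and Lgmn) and for 4 after transection (Ctsc, Ctsd, Ctsl and Lgmn), against 14.1% and 16.5% of genes. The median log2 fold change of the 10 members was -1.20 in the sensory nerve+ rats, where that of all genes tested was 0.003, and -0.77 in the sensory nerve- rats, where that of all genes was -0.05. The calls in the sensory nerve+ rats rested on few libraries. Leaving out any of 5 of the 7 rats (replicate 1 or 3 of day 3, or replicate 1, 3 or 4 of day 14) left 0 members called, where at most 0.966% of genes were called lower. Leaving out replicate 2 of day 3 left Lgmn and Ctsd, against 1.3% of genes, and leaving out replicate 2 of day 14 gave 5 with Ctss added, against 9.39%. After transection the 4 genes remained called in all 8 such fits, in which 6.76% to 17% of genes were called lower, while Ctss was also called without replicate 2 of day 14 and Ctsb without replicate 3 of day 3. With scaling by the library total the median of all genes after transection moved to -0.42, with 308 genes called higher and 876 lower in place of 1284 and 2112, and the same 4 members were called lower (against 6.06% of genes), with -2.45 for Lgmn, -2.85 for Ctsl, -1.85 for Ctsd and -1.52 for Ctsc. In the sensory nerve+ rats this scaling called those 4 and Ctsb lower, against 1.25% of genes.

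Lgmn, the asparaginyl endopeptidase, had levels of 1405, 592 and 989 CPM at day 3 with the nerve intact, 691, 611, 268 and 400.4 CPM at day 7 and 141, 149, 243 and 225 CPM at day 14. After transection it had 817, 1062, 798 and 1582 CPM at day 3, 325, 963, 1003 and 1008 CPM at day 7 and 247, 319, 191 and 222 CPM at day 14. Every rat of day 14 lay below every rat of days 3 and 7 of its nerve group. The log2 fold change of Lgmn from day 3 to day 14 was -2.36 ± 0.34 (SE) at an adjusted p of 0.0272 in the sensory nerve+ rats and -2.15 ± 0.28 (SE) at an adjusted p of 0.00311 in the sensory nerve- rats. Ctsl, an endopeptidase, fell likewise. Its levels were 1898, 624 and 884 CPM with the nerve intact at day 3, 666, 567, 367 and 379 CPM at day 7 and 228, 127, 328 and 264 CPM at day 14. After transection they were 757, 1106, 1074 and 2173 CPM at day 3, 398, 887, 1080.04 and 923 CPM at day 7 and 147, 317, 277 and 179 CPM at day 14. In each nerve group the rats of day 14 lay below those of both earlier days. The log2 fold change of Ctsl was -2.23 ± 0.46 (SE) at an adjusted p of 0.0427 in the sensory nerve+ rats and -2.51 ± 0.40 (SE) at an adjusted p of 0.00558 in the sensory nerve- rats.

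Ctsd, the aspartic protease, had 2088, 886 and 1458 CPM at day 3 and 478, 365, 599 and 573 CPM at day 14 in the sensory nerve+ rats. After transection it had 1579, 2884, 1287 and 2336 CPM at day 3 and 566, 846, 675 and 869 CPM at day 14. Here too the days did not overlap within a nerve group. Ctsd changed by -1.52 ± 0.32 (SE) at an adjusted p of 0.0445 in the sensory nerve+ rats and -1.48 ± 0.29 (SE) at an adjusted p of 0.0117 in the sensory nerve- rats, on the log2 scale, and with no filter on low counts the call in the sensory nerve+ rats was lost (adjusted p = 0.0515). Ctsc, the activator of granule proteases, had 541, 305 and 321 CPM at day 3 and 122, 117, 177 and 159 CPM at day 14 in the sensory nerve+ rats. After transection its levels were 303, 254, 338 and 500.2 CPM and 127, 193, 153 and 155 CPM. The lowest rat of day 3 lay above the highest of day 14 in each nerve group. Ctsc changed by -1.41 ± 0.26 (SE) at an adjusted p of 0.0404 and -1.18 ± 0.23 (SE) at an adjusted p of 0.0116, in that order. All 4 genes were thus lower at day 14 in rats with either state of the nerve, and the difference between the 2 courses was tested by the interaction given further on.

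The other 6 members did not pass the test over this span with all 7 or 8 rats and TMM scaling, and Ctsa, Ctsb, Ctsh and Ctss each passed in at least 1 other fit. Ctsb, the carboxydipeptidase, had log2 fold changes of -1.41 ± 0.35 (SE) at an adjusted p of 0.0582 in the sensory nerve+ rats and -0.95 ± 0.32 (SE) at an adjusted p of 0.0667 in the sensory nerve- rats. With the nerve intact it was called lower with scaling by the library total (adjusted p = 0.048), in 1 fit over all 23 rats (adjusted p = 0.0249) and by DESeq2 (adjusted p = 0.00155), and after transection by DESeq2 (adjusted p = 0.0243). For Ctsa, the partner of Neu1 and Glb1, they were -0.81 ± 0.25 (SE) at an adjusted p of 0.0894 and -0.55 ± 0.22 (SE) at an adjusted p of 0.111, and DESeq2 called it in the sensory nerve+ rats (adjusted p = 0.0251). For Ctss, the protease of the invariant chain, they were -0.81 ± 0.35 (SE) at an adjusted p of 0.178 and -0.58 ± 0.25 (SE) at an adjusted p of 0.124. Ctsz, the carboxypeptidase, had -0.99 ± 0.41 (SE) at an adjusted p of 0.17 and -0.17 ± 0.50 (SE) at an adjusted p of 0.825. The aminopeptidase Ctsh was on the other side of 0. It had 215, 197 and 212 CPM at day 3 and 229, 398, 321 and 247 CPM at day 14 in the sensory nerve+ rats, and 207, 236, 215 and 252 CPM and 261, 504, 265 and 346 CPM in the sensory nerve- rats. All rats of day 14 lay above all rats of day 3 of their nerve group. Ctsh was the 1 member of 10 with this order, against 10.5% and 10.2% of the genes tested. Its log2 fold changes were 0.55 ± 0.22 (SE) at an adjusted p of 0.165 and 0.56 ± 0.22 (SE) at an adjusted p of 0.0969, and DESeq2 called it in the sensory nerve- rats (adjusted p = 0.0327). Ctsf, a further endopeptidase of the invariant chain, had 0.09 ± 0.15 (SE) at an adjusted p of 0.734 and 0.47 ± 0.19 (SE) at an adjusted p of 0.111. In all, DESeq2 called 6 members lower in the sensory nerve+ rats, against 8.4% of genes, and 5 lower and 1 higher in the sensory nerve- rats, against 13.2% and 12.9%. The fit over all 23 rats called 5 lower in the sensory nerve+ rats, against 9.35% of genes.

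**Figure D2:**
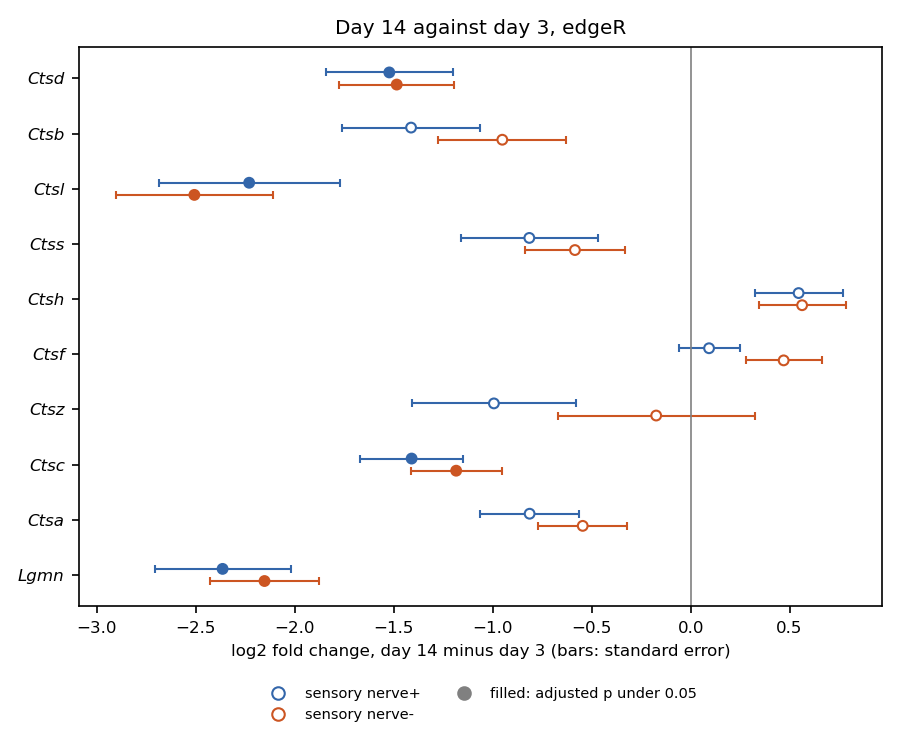
Log2 fold change of each member from day 3 to day 14 (x axis, bars are standard errors from edgeR's fit) in sensory nerve+ and sensory nerve- rats, with filled points for adjusted p under 0.05. Lgmn, Ctsl, Ctsd and Ctsc are filled in each nerve group, while Ctsh and Ctsf lie on the other side of 0 and are open.

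The shorter steps gave no member past the threshold of edgeR's test with all rats. Between days 3 and 7, 0 of 10 members were called in either nerve group, against 6.67% of 15016 genes in the sensory nerve+ rats and 10.5% of 14576 genes in the sensory nerve- rats. At an unadjusted p under 0.05 there were 4 members in the sensory nerve+ rats (Ctsc, Ctsf, Ctsl and Lgmn) and 2 in the sensory nerve- rats (Ctsf and Ctsh), against 24.8% and 28.8% of genes, and DESeq2 called Ctsl lower in the first and Ctsf higher in the second, against 6.21% and 7.88% of genes in those directions. Ctsf was also called higher after transection in 1 fit over all 23 rats, against 6.61% of genes. With the nerve intact, 1 member (Ctsc) lay lower in all rats of day 7 (against 13% of genes), and after transection all 10 overlapped (against 21.6% of genes that did not). The members' median log2 fold change was -0.47 in the sensory nerve+ rats and 0.14 in the sensory nerve- rats. Without replicate 1 of the sensory nerve- group of day 7, 3 members were called higher at day 7 than at day 3, against 3.02% of genes in the same fit, namely Ctsh with 0.74 ± 0.13 (SE) at an adjusted p of 0.0207, Ctsf with 0.96 ± 0.20 (SE) at an adjusted p of 0.0329 and Ctss with 0.83 ± 0.20 (SE) at an adjusted p of 0.0454. Between days 7 and 14, 0 of 10 were called, against 0.0202% of 14867 and 0.0138% of 14447 genes. At an unadjusted p under 0.05 there were 4 members in the sensory nerve+ rats and 6 in the sensory nerve- rats, all lower at day 14, against 9.42% and 23.5% of genes. Lgmn and Ctsl lay lower in every rat of day 14 in each nerve group, against 3.4% and 6.73% of genes. Lgmn had -1.35 ± 0.33 (SE) at an adjusted p of 0.336 in the sensory nerve+ rats and -1.74 ± 0.38 (SE) at an adjusted p of 0.104 in the sensory nerve- rats, and Ctsl had -1.04 ± 0.33 (SE) at an adjusted p of 0.451 and -1.83 ± 0.38 (SE) at an adjusted p of 0.104. DESeq2 called Lgmn lower in the sensory nerve+ rats, against 0.585% of genes, and Lgmn, Ctsl, Ctsd and Ctsc in the sensory nerve- rats, against 4.36%. The fit over all 23 rats called Lgmn, Ctsl and Ctsd lower in the sensory nerve- rats, against 2.8% of genes. Without replicate 2 of day 14 in the sensory nerve- rats 2 members (Ctsl and Lgmn) were called lower, against 0.915% of genes, and without replicate 1 of day 7 it was Lgmn alone, against 0.109%.

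Whether transection changed these genes was asked on each day. No member passed the test on any day, and no gene at all did in these 3 fits (0 of 14695 genes at day 3, 0 of 14716 at day 7 and 0 of 14610 at day 14, 0.0% of each). At an unadjusted p under 0.05 there were 122, 215 and 1362 genes (0.83%, 1.46% and 9.32%) and 0, 0 and 3 members, and DESeq2 called 0, 1 and 104 genes and 0 members. Most members lay on the same side of 0. At day 3, 8 of 10 members had a log2 fold change above 0 with a median of 0.14, at day 7 all 10 with a median of 0.74, and at day 14 9 of 10 with a median of 0.36, beside medians over all genes of -0.01, -0.01 and 0.03. Since the members vary together from rat to rat, these counts are not independent observations. At day 3 the groups overlapped for all 10, and 1.61% of genes did not. Ctsd had 2088, 886 and 1458 CPM in the sensory nerve+ rats and 1579, 2884, 1287 and 2336 CPM in the sensory nerve- rats, and its log2 fold change of 0.45 ± 0.38 (SE) at an adjusted p of 1.0 was the highest of the 10. Ctsc with -0.17 ± 0.29 (SE) and Ctsf with -0.08 ± 0.17 (SE) lay below 0 on that day.

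At day 7 the rats overlapped for every member, and 0.775% of genes did not. Ctsb had 2940.3, 2247, 1002 and 2115 CPM in the sensory nerve+ rats and 1616, 3872, 5243 and 4239 CPM in the sensory nerve- rats, and the log2 fold change was 0.85 ± 0.47 (SE) at an adjusted p of 1.0. Ctsd had 1584, 1056, 489 and 1054 CPM and 803, 1819, 2612 and 2556 CPM, with 0.90 ± 0.47 (SE) at an adjusted p of 1.0. In each gene replicates 2, 3 and 4 of the sensory nerve- group lay above all sensory nerve+ rats and replicate 1 lay below 3 of them. Ctss had 379, 243, 98.8 and 287 CPM against 169.6, 417, 510.04 and 600.1 CPM, with 0.75 ± 0.47 (SE) at an adjusted p of 1.0, and Ctsz had 424, 216, 115 and 424 CPM against 135, 448, 631 and 1288 CPM, with 1.09 ± 0.67 (SE) at an adjusted p of 1.0. Both showed the low replicate 1 in the sensory nerve- group and the low replicate 3 in the sensory nerve+ group. Of the other 6 members, Lgmn had 0.74 ± 0.43 (SE), Ctsl 0.73 ± 0.35 (SE), Ctsa 0.70 ± 0.40 (SE), Ctsc 0.56 ± 0.35 (SE), Ctsf 0.39 ± 0.26 (SE) and Ctsh 0.34 ± 0.26 (SE). Without replicate 1 of the sensory nerve- group the values rose to 1.10 ± 0.39 (SE) for Ctsb, 1.16 ± 0.39 (SE) for Ctsd and 0.96 ± 0.26 (SE) for Ctsl, the unadjusted p was under 0.05 for 9 of 10 members and for 1604 of 14904 genes, and the adjusted p of the 10 members was 0.458 to 0.47.

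At day 14 Ctsb was the only member whose groups did not overlap, with 934, 906, 1322 and 1423 CPM in the sensory nerve+ rats and 1466, 1669.8, 2218 and 2346 CPM in the sensory nerve- rats. Of all genes tested, 1.33% were higher in every sensory nerve- rat. The log2 fold change of Ctsb was 0.74 ± 0.28 (SE) at an adjusted p of 0.519. Ctsa had 301, 413, 405 and 330.4 CPM against 508, 613, 389 and 549.8 CPM, with 0.50 ± 0.19 (SE) at an adjusted p of 0.519, and Ctsd had 0.55 ± 0.23 (SE) at an adjusted p of 0.519. Ctsz had 126, 339.9, 189 and 179 CPM against 386, 643, 142 and 658 CPM, where the sensory nerve- replicate 3 was low, and it differed by 1.12 ± 0.49 (SE) at an adjusted p of 0.519 on the log2 scale. Ctsl had -0.04 ± 0.36 (SE) at an adjusted p of 0.977, and Ctsc, Ctsf, Ctsh, Ctss and Lgmn lay between 0.12 and 0.36. Without replicate 3 of the sensory nerve- group, Ctsb had 0.64 ± 0.30 (SE) at an adjusted p of 0.425 and Ctsz had 1.39 ± 0.37 (SE) at an adjusted p of 0.313. The day 14 values depended on the scaling. With scaling by the library total, the median of all genes moved to -0.41 and that of the members to 0.01, with 5 of 10 above 0, and Ctsb then had 0.27. The share of counts from erythroid genes was 1.40% to 20.4% in the sensory nerve+ rats and 0.265% to 50.6% in the sensory nerve- rats of that day.

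With the 3 days pooled and day as a covariate, all 10 members lay above 0 in the sensory nerve- rats with a median log2 fold change of 0.41, and 0 of 10 were called, as were 0 of 15858 genes (0.0%). An unadjusted p under 0.05 was found for 4 of 10 members and for 5.11% of all genes. These 4 were Ctsd with 0.65 ± 0.22 (SE), Ctsb with 0.63 ± 0.23 (SE), Ctsa with 0.48 ± 0.18 (SE), and Ctsz with 0.85 ± 0.35 (SE), all from edgeR and all with an adjusted p of 0.86. The remaining 6 lay between 0.20 for Ctsc and 0.42 for Lgmn. Scaling by the library total moved the median of all genes to -0.16 and that of the members to 0.31. The interaction of transection and day, which tests whether the course over the days differed with the nerve, was called for 0 of 10 members and 0 of 15858 genes by edgeR and for 0 genes by DESeq2, and the smallest unadjusted p of a member was 0.275, for Ctsf. Over all genes, 475 (3%) had an unadjusted p under 0.05 in that test with edgeR and 841 with DESeq2.

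**Figure D3:**
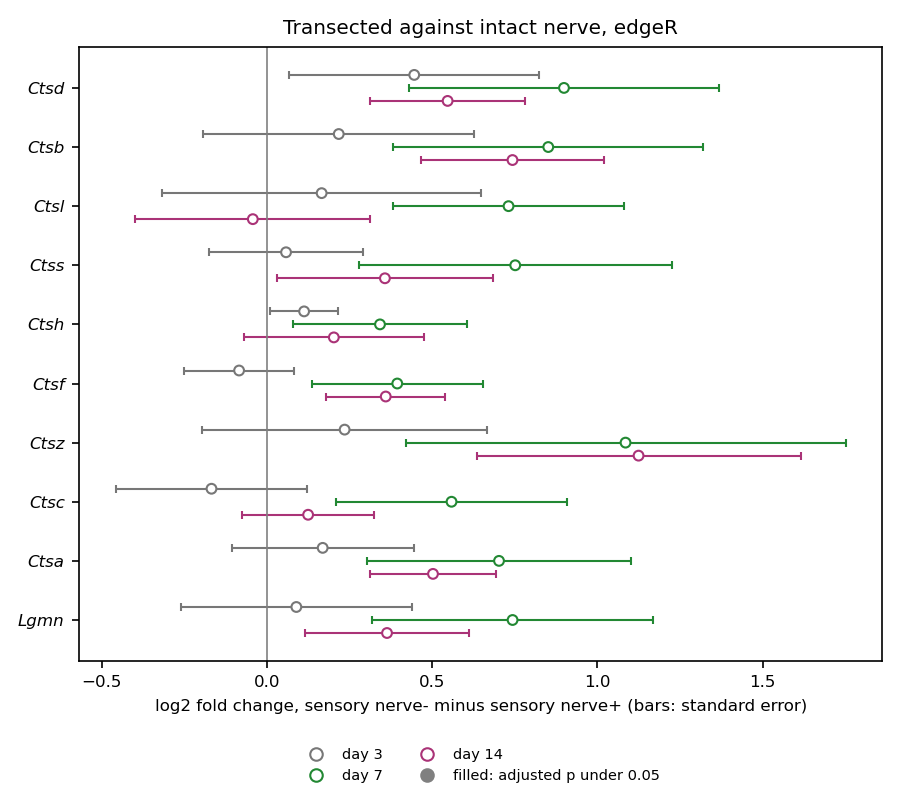
Log2 fold change of each member with transection (x axis, sensory nerve- minus sensory nerve+, bars are standard errors from edgeR's fit) at days 3, 7 and 14. All points are open since no adjusted p was under 0.05, and all 10 members lie above 0 at day 7.

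Levels of cell markers moved beside the members, and their part in the results was not tested. The summed level of 12 macrophage markers ran from 1289 to 2938 CPM at day 3 to 625 to 1418 CPM at day 14 in the sensory nerve+ rats, and from 1350.1 to 3025 CPM to 834 to 1907 CPM in the sensory nerve- rats. Over that span 2 of the 12 markers were called lower in the sensory nerve+ rats, and 3 lower and 1 higher in the sensory nerve- rats, with Mrc1, the mannose receptor, at -2.66 ± 0.37 (SE) at an adjusted p of 0.0272 and -1.75 ± 0.49 (SE) at an adjusted p of 0.0353. The marker called higher was C1qc, with 1.12 ± 0.34 (SE) at an adjusted p of 0.0479. Of the 12 markers, 4 in the sensory nerve+ and 5 in the sensory nerve- rats had a log2 fold change above 0. Csf1r, the receptor that macrophages and osteoclast precursors need, had -0.83 ± 0.39 (SE) at an adjusted p of 0.212 in the sensory nerve+ rats and 0.05 ± 0.36 (SE) at an adjusted p of 0.934 in the sensory nerve- rats. The 9 osteoclast markers in the table had sums of 705 to 4051 CPM with the nerve intact and 877 to 16324 CPM after transection at day 7, and of 1570.3 to 3487 CPM and 1359 to 12713 CPM at day 14. Of all genes, as given above, 3.09% and 14.6% were called lower and 2.69% and 8.89% higher. Other marker lists also moved from day 3 to 14. Their median log2 fold changes follow for the sensory nerve+ and then the sensory nerve- rats. The 4 epithelial markers tested had -5.29 and -5.48, with 0 and 2 called lower. Neutrophil markers had 3.73 and 2.13, lymphocyte markers 2.11 and 2.77, and Schwann cell markers 4.29 and -1.01. The 9 osteoclast markers had 0.21 and 1.40, with 0 and 2 called higher. Of the skeletal muscle markers, 9 of 10 were called higher at day 14 than at day 3 in the sensory nerve+ rats and 5 of 9 in the sensory nerve- rats. All 10 and all 9 had a log2 fold change above 0. They summed to 30.7 to 77.6 CPM and 21.4 to 486 CPM at day 3 and to 273 to 25339 CPM and 239.8 to 6631 CPM at day 14, in that order. At day 7 they lay at 5348 to 22394 CPM in the sensory nerve+ rats and 2196 to 36165 CPM in the sensory nerve- rats, where the highest value belonged to replicate 1, the rat with the lowest level of all 10 members in its group. In that rat the macrophage sum, 906 CPM, was also the lowest of its group, and in replicate 3 of the sensory nerve+ group, the other rat with 10 lowest members, it was 619.8 CPM, again the lowest, while the muscle sum of that rat was the lowest of its group.

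**Figure D4:**
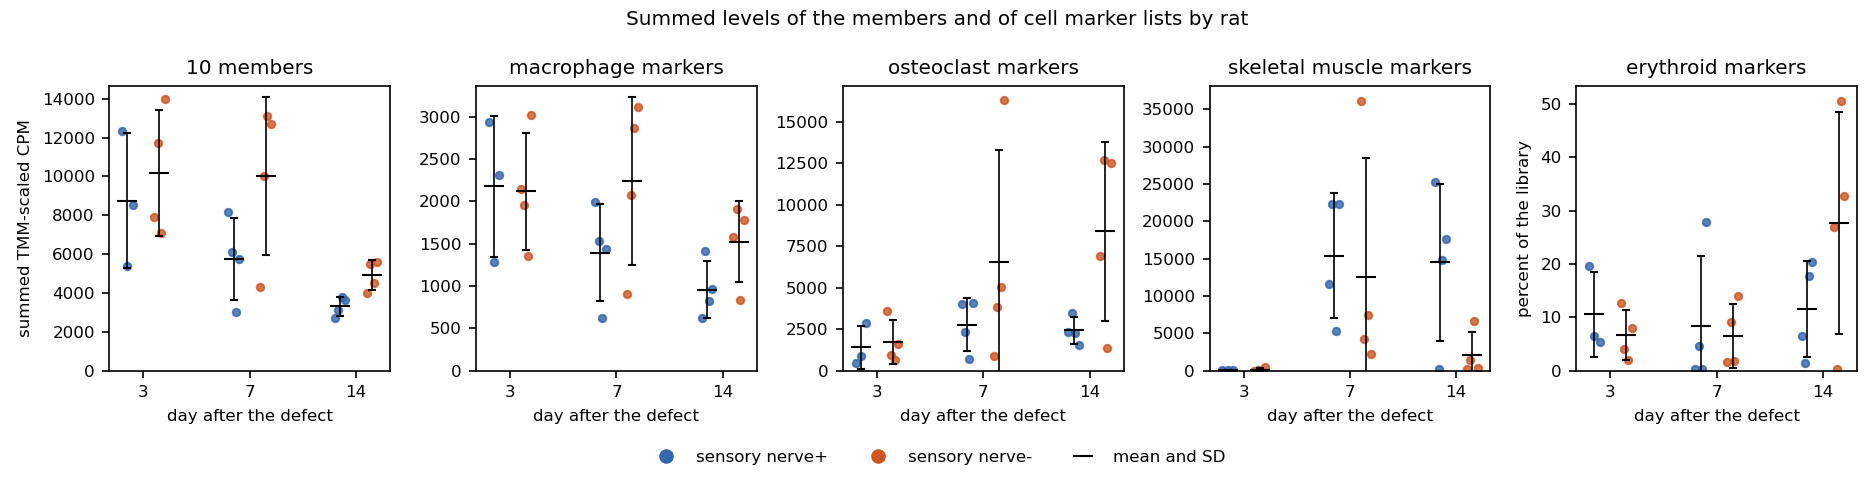
Summed TMM-scaled CPM of the 10 members and of macrophage, osteoclast and skeletal muscle marker lists, and the percent of the library in erythroid markers (y axes, from 0), by day (x axes), where each point is 1 rat, and the black marks are the mean and SD, cut at 0. The members and the macrophage markers are low in the same rats of day 7, and muscle markers are lowest at day 3.

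The genes that work with these proteases were counted by list. Among the other cathepsins, Ctsk, the collagenase of osteoclasts, had 609.6 ± 601 CPM (n = 3, SD) with the nerve intact at day 3, and 1424 ± 417 CPM (n = 4, SD) at day 14. After transection it had 796 ± 588 CPM (n = 4, SD) at day 3, and then 4725 ± 3170.4 CPM (n = 4, SD) at day 14, with a range of 698 to 7538 CPM between rats. Over these days Ctsk differed by 1.25 ± 0.68 (SE) at an adjusted p of 0.276 in the sensory nerve+ rats and 2.54 ± 0.75 (SE) at an adjusted p of 0.0435 in the sensory nerve- rats, so it rose in the latter while Lgmn, Ctsl, Ctsd and Ctsc fell. Ctsw, a protease of cytotoxic lymphocytes, and Ctse, an aspartic protease of the endosome, were also called higher there, with 3.05 ± 0.48 (SE) at an adjusted p of 0.00528 and 2.33 ± 0.60 (SE) at an adjusted p of 0.0279. No cathepsin of this list was called in the sensory nerve+ rats. Acp5, the acid phosphatase of osteoclasts, had 0.87 ± 0.57 (SE) at an adjusted p of 0.36 and 2.70 ± 0.87 (SE) at an adjusted p of 0.0556. With transection, Ctsk had 1.72 ± 0.65 (SE) at an adjusted p of 0.519 at day 14 and Acp5 2.12 ± 0.72 (SE) at an adjusted p of 0.519. Of the rodent cathepsin L paralogs of the placenta, Ctsll3 was in the rat table and stayed at or under 0.104 CPM.

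Cst3 (cystatin C), a secreted inhibitor of cysteine cathepsins, had the opposite order of days. From day 3 to 14, the span of all counts here, 3.09% of all genes were called lower and 2.69% higher in the sensory nerve+ rats, and 14.6% lower and 8.89% higher in the sensory nerve- rats. The level of Cst3 was 281 ± 112 CPM (n = 3, SD) with the nerve intact at day 3 and 801 ± 176 CPM (n = 4, SD) at day 14, a log2 difference of 1.52 ± 0.35 (SE) at an adjusted p of 0.0526, which did not pass. After transection it was 299 ± 102 CPM (n = 4, SD) and 1714 ± 525 CPM (n = 4, SD), and it rose by 2.48 ± 0.32 (SE) at an adjusted p of 0.00319. Of 4 cystatins tested it was the only one called. Cstb, the cystatin of the cytosol, had -1.05 ± 0.25 (SE) at an adjusted p of 0.0538 and -0.74 ± 0.30 (SE) at an adjusted p of 0.104. Among the 11 genes of proenzyme sorting and activation, 1 was called lower in the sensory nerve+ rats, the small mannose 6-phosphate receptor M6pr with -0.87 ± 0.17 (SE) at an adjusted p of 0.0422. After transection 3 were called lower, among them the large receptor Igf2r with -0.82 ± 0.18 (SE) at an adjusted p of 0.0164 and the sorting receptor Scarb2 with -0.97 ± 0.20 (SE) at an adjusted p of 0.0141. Genes of the lysosomal membrane were called lower for 0 of 11 in the sensory nerve+ rats and for 6 of 11 in the sensory nerve- rats, with -0.82 ± 0.22 (SE) at an adjusted p of 0.0301 for Lamp1 and -0.72 ± 0.17 (SE) at an adjusted p of 0.0215 for Lamp2. Other lysosomal hydrolases, of which 31 were tested, were called lower for 2 in the sensory nerve+ rats and for 5 in the sensory nerve- rats, where 1 was called higher. In the sensory nerve- rats that count lay near the share of all genes called lower, so it says little about the list. Their medians were -0.52 and -0.16. Galc, the galactosylceramidase, had -1.02 ± 0.29 (SE) at an adjusted p of 0.0771 in the sensory nerve+ rats and -1.30 ± 0.25 (SE) at an adjusted p of 0.0112 in the sensory nerve- rats. None of the 15 subunits of the proton pump (V-ATPase) and none of the 5 genes of the TFEB group was called over this span in either nerve group. Of 9 genes of MHC class II presentation, 0 were called in the sensory nerve+ rats and 2 were called higher in the sensory nerve- rats, Cd74 (the invariant chain) with 2.09 ± 0.53 (SE) at an adjusted p of 0.027 and RT1-Da with 1.91 ± 0.55 (SE) at an adjusted p of 0.04.

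With transection, none of the genes in these lists was called on any day, as no gene was. At day 14, under TMM scaling, the median log2 fold change was 0.72 over the 15 V-ATPase subunits, 0.42 over the 31 other hydrolases and 0.08 over the 11 lysosomal membrane genes, on the scale that library totals shift as given above. The genes of these lists were fitted with all rats of a comparison, and no rat was left out in turn for them. At day 7 the medians were 0.58, 0.57 and 0.38, beside 0.74 for the members. Glb1, which Ctsa protects, had 0.87 ± 0.33 (SE) at an adjusted p of 0.519 at day 14.

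The genes outside these lists whose log2 level ran most like the mean of the members over the 23 rats were Anpep (r = 0.95), C2 (r = 0.94), Fkbp15 (r = 0.94), Arl11 (r = 0.93) and Slc29a3 (r = 0.93), out of 15672 genes compared. Anpep is an aminopeptidase of the cell surface, C2 is a complement component, Fkbp15 belongs to the FK506-binding proteins, Arl11 is a small GTPase-like protein and Slc29a3 is a nucleoside transporter of the lysosome. The points share day and nerve group, and the r values are a description without a test.

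In RAW264.7 macrophages, no member passed the test for a difference with CGRP. The 10 genes took 0.866% to 0.893% of the reads with LPS and 0.855% to 0.877% with LPS and CGRP. Per kilobase of the longest principal transcript, the order in the LPS samples was Ctsd with 1018 ± 19.6 CPM per kb (SD, n = 6), Ctss with 789 ± 18.9, Ctsz with 666 ± 8.99, Ctsb with 585 ± 8.70 and Ctsa with 205 ± 1.47 CPM per kb. Lgmn with 125 ± 2.17, Ctsl with 110.4 ± 1.92, Ctsc with 48.7 ± 0.826, Ctsf with 13.8 ± 0.202 and Ctsh with 0.221 ± 0.0516 CPM per kb followed. The ranges of neighbours in this order did not overlap in the LPS samples. The order rests on the lengths taken, such as 6168 bases for Ctsl and 4743 for Ctsb, and shorter transcripts were not tried. Ctsh, present in every rat at 197 to 504 CPM, had 0.232 to 0.451 CPM with LPS and 0.299 to 0.542 CPM with CGRP, that is 13 to 32 reads, and was below the filter on low values. In mm10 with the GENCODE vM21 annotation, Ctsd lies at chr7:142375911-142388038 on the minus strand, Ctsl at chr13:64359337-64370890 on the minus strand, Ctsc at chr7:88278085-88310888 on the plus strand and Lgmn at chr12:102394084-102439813 on the minus strand.

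Of the 9 members tested, 0 were called by limma on log2(CPM + 0.5), against 0.0168% of 11899 genes (2 genes), and 1 had an unadjusted p under 0.05, against 10.8% of genes. Ctsl was that member. It had 668, 678 and 697 CPM with LPS (lowest, median and highest of 6) and 679, 644, 672, 658 and 641 CPM with LPS and CGRP, so the groups overlapped. Its log2 difference was -0.05 ± 0.02 (SE) at an adjusted p of 0.358. Ctsb had 2726, 2774 and 2822 CPM with LPS (lowest, median and highest of 6) and 2774, 2683, 2723, 2751 and 2712 CPM with LPS and CGRP, and Ctsd had 2119.9, 2167 and 2212 CPM with LPS (lowest, median and highest of 6) and 2149, 2078, 2146, 2141 and 2101 CPM with LPS and CGRP. Their log2 differences were -0.02 ± 0.01 (SE) at an adjusted p of 0.595 and -0.03 ± 0.02 (SE) at an adjusted p of 0.519. Lgmn had 242, 249 and 253 CPM with LPS (lowest, median and highest of 6) and 248, 244, 249, 247 and 241 CPM with LPS and CGRP, with -0.01 ± 0.01 (SE) at an adjusted p of 0.788. The groups overlapped in all 9 members, and 1.18% of all genes tested did not overlap. Ctsc, with 0.03 ± 0.02 (SE) at an adjusted p of 0.554, lay furthest above 0, and Ctsa, Ctsf, Ctss and Ctsz lay between -0.01 and 0.01 with standard errors of at most 0.02. On whole reads recovered from the deposited values, which came out whole within 0.01 for 100% of values, edgeR called 0 of 13525 genes and DESeq2 75 genes, with 0 members each, and 2 members had an unadjusted p under 0.05 in each. Ctsk, the osteoclast protease, had -0.01 ± 0.02 (SE), and 0 genes of the lysosomal lists were called.

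**Figure D5:**
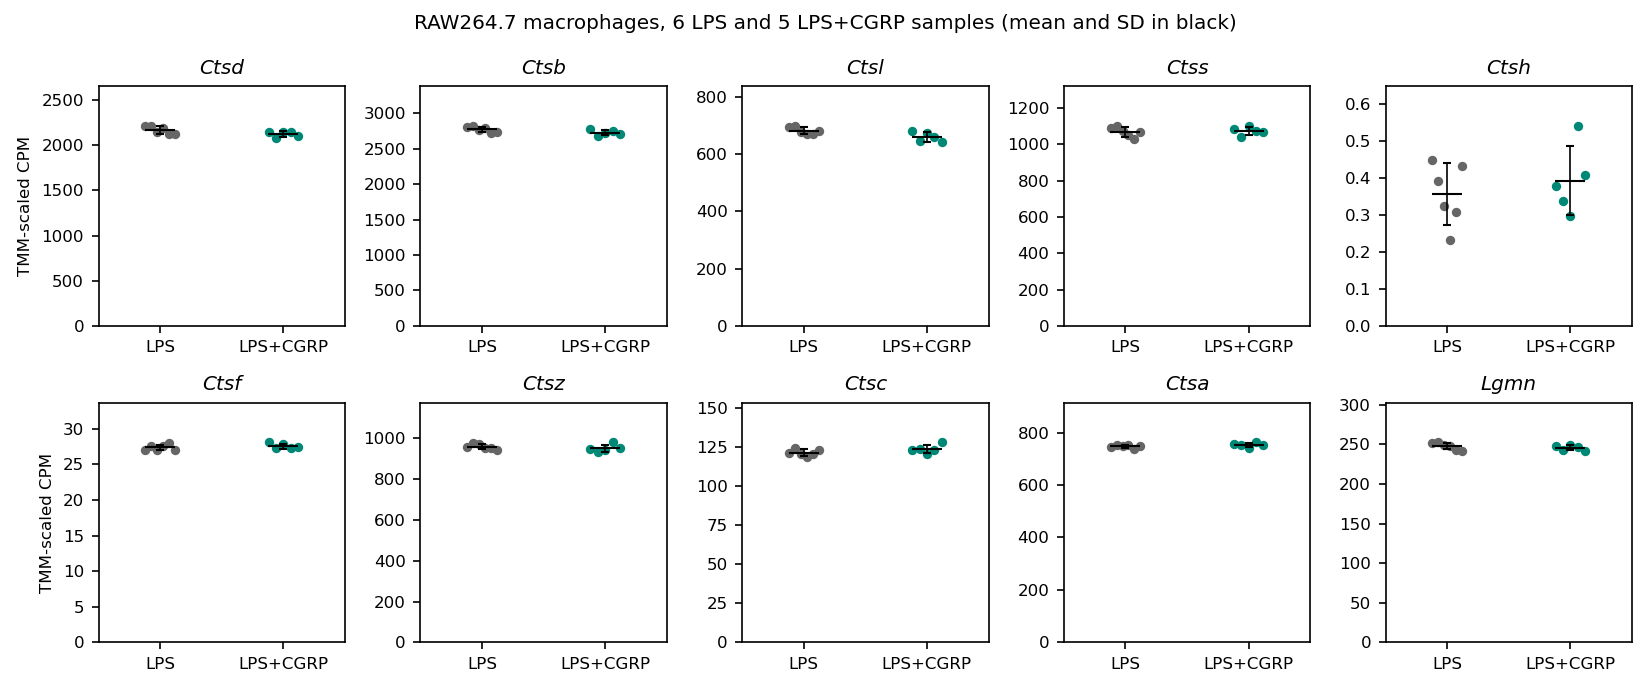
TMM-scaled CPM of each member (y axes, from 0) in RAW264.7 macrophages with LPS or with LPS and CGRP, where each point is 1 sample and the black marks are the mean and SD. The groups overlap in every panel, and Ctsh stays under 1 CPM.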

How the data were processed

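For the rat tissue, the authors aligned reads to mRatBN7.2 by HISAT, with Bowtie2 also in the submitters' processing notes. The deposited values are expected counts per gene, and each was rounded to a whole number. For the macrophages, per the labels and methods reads were trimmed with cutadapt and aligned to mm10 with STAR (FeatureCounts is among the tools the methods name), and the authors deposited a signal per gene and run, in which each read had been multiplied by 1 factor per run. The 2 runs of a sample were summed.

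Rat counts were filtered by filterByExpr, scaled by TMM and fitted with edgeR 4.0.16 (quasi-likelihood test) on the groups compared, with Benjamini-Hochberg adjustment over all genes and a threshold of 0.05. Standard errors were derived from its F statistic. Macrophage values were scaled by TMM, kept above 0.5 CPM in at least 5 samples and tested with limma 3.58.1 with a trend, as log2(CPM + 0.5), which understates the change of low genes. DESeq2 1.42.0, other scalings and filters, the replicate block and leaving out each sample were alternatives. R 4.3.3, Python 3.11.15, pandas 2.3.3, numpy 2.4.6 and matplotlib 3.10.9 were used. The tests were also run on simulated counts with known folds, drawn independently for each gene. The members here varied together between rats, which that simulation did not mimic.

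The members and gene lists were chosen with earlier results of these data known. All members were named, with at most 2 genes of smallest p per list and comparison plus Ctsk, Acp5 and list genes singled out by role or direction (such as Csf1r, C1qc and Glb1), and the 5 genes most like the members. Expected counts share reads between similar genes, which can blur close paralogs. Rat genes were not compared in level with each other, since no rat transcript lengths were at hand.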

Additional observations from a re-analysis of the deposited data

Results flagged for a closer look

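Lgmn in replicate 1 of the sensory nerve- group of day 7 was far from the other 3 rats of its group, with 325 CPM against 963, 1003 and 1008 CPM. The gap to the next rat was 0.933 of the range of the group. Chance would flag about 1 in 20 groups, and 1 of 70 groups of a member was flagged. The same rat had the lowest level of all 10 members in its group and the highest sum of skeletal muscle markers, and the part of muscle in its values was not tested.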

How the results depend on the processing

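Of 680 fold changes of members refitted under another scaling, filter, tool, pseudocount, run or block, 643 kept their direction and side of the threshold, 17 passed newly, 5 no longer passed and 15 changed sign, all of the latter uncalled before and after. The cause was not tested. DESeq2 called 1 member from day 3 to 7 with the nerve intact, 1 from day 7 to 14 with the nerve intact, 1 from day 3 to 7 after transection and 4 from day 7 to 14 after transection, where edgeR called 0 each, and 1 fit over all 23 rats called 1 and 3 in the last 2. Counts over all genes moved more. From day 3 to 14 with the nerve intact edgeR called 871 (406 higher, 465 lower), against 547 with library totals (358 higher, 189 lower), 3408 with DESeq2, 2606 in 1 fit over all rats, 0 with the block and 0 to 3133 with 1 rat left out. After transection it called 3396 (1284 higher, 2112 lower), against 1184 with library totals (308 higher, 876 lower) and 1620 to 4346 with 1 rat left out. From day 3 to 7 the counts were 1002 with the nerve intact (2751 with DESeq2, 579 with library totals, 122 with the block, 254 to 1547 with 1 rat left out) and 1524 after transection (3224, 1217, 2 and 0 to 1359). From day 7 to 14 they were 3 (335, 13, 0 and 0 to 28) and 2 (1991, 21, 0 and 0 to 814), in the same order, with 927 for the latter in 1 fit over all rats. For CGRP they ran from 0 to 75. Members called with 1 rat left out ranged from 0 to 5 from day 3 to 14 with the nerve intact and from 4 to 5 after transection, and from 0 to 3 from day 3 to 7 and from 0 to 2 from day 7 to 14 after transection. Where 1 rat or sample left out changed a sign, the log2 fold change is given as its range over such fits. With CGRP it was -0.0030 to 0.018 for Ctss. From day 3 to 7 with the nerve intact it was -0.32 to 0.20 for Ctss. From day 3 to 14 after transection it was -0.42 to 0.12 for Ctsz. From day 3 to 7 after transection it was -0.18 to 0.28 for Ctsb, -0.39 to 0.0046 for Ctsc, -0.24 to 0.19 for Ctsd and -0.31 to 0.64 for Ctsz. From day 7 to 14 after transection it was -0.20 to 0.20 for Ctsh and -0.78 to 0.19 for Ctsz. For transection at day 14 it was -0.013 to 0.24 for Ctsc, -0.042 to 0.32 for Ctsh and -0.30 to 0.15 for Ctsl. For transection at day 3 it was -0.042 to 0.37 for Ctsa, -0.036 to 0.57 for Ctsb, -0.38 to 0.14 for Ctsc, -0.19 to 0.015 for Ctsf, -0.20 to 0.74 for Ctsl, -0.13 to 0.26 for Ctss, -0.037 to 0.57 for Ctsz and -0.16 to 0.41 for Lgmn. Scaling by library totals turned Ctsc to -0.26, Ctsf to -0.058, Ctsh to -0.17 and Ctss to -0.015 for transection at day 14, Ctsf to 0.0035 at day 3 and Ctsh to -0.25 from day 7 to 14 after transection. The deposited macrophage values without scaling put the median of all genes at 0.11 and turned Ctsb to 0.093, Ctsd to 0.088, Ctsl to 0.069, Ctsz to 0.11 and Lgmn to 0.10. In no comparison did all pairs of same-numbered samples correlate above 0.1 in their deviations from the group means, so the numbers were not taken as pairs. With the replicate number as a block, 0 members were called from day 3 to 14 with the nerve intact and 4 after transection, no other count of members changed, and Ctsl turned to -0.067, Ctss to -0.029 and Lgmn to -0.099 for transection at day 3 and Ctsb to -0.018 from day 3 to 7 after transection.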
